A study of Mus musculus with 8 samples.

Results

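The genes described here are the protein-coding genes of mouse chromosome 18 in 3T3L1 preadipocytes, in which the RNA of this chromosome stood higher in a line edited at Ddx6 than in its control line. Members were protein-coding genes of chromosome 18 (GRCm38, GENCODE annotation, matched by gene identifier) with a value of at least 1 FPKM (fragments per kilobase of gene, scaled to the number of mapped fragments) in at least 2 of the 8 libraries. Of 499 protein-coding genes on the chromosome, 317 passed this filter. Of these, 26 were left out by name, namely 10 single genes described elsewhere by function and the genes of 6 name prefixes (ribosomal proteins, subunits of the respiratory chain and of ATP synthase, translation factors and zinc finger proteins), so that 291 members remained of the 46073 genes in the table. At the edge of the filter, judged by the second highest of the 8 values, Stard6 at 1.06, Pcdhga4 at 1.08 and Ska1 at 1.10 FPKM were just inside, and Gm6133 at 0.995, Mro at 0.988 and Alpk2 at 0.958 FPKM were just outside. The chromosome was chosen by its measured values, namely FPKM that read higher in the edited line than in TOM cells, so every ratio between the lines is given below as a description, without a test, and tests are kept for the response to induction.

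3T3L1 is a preadipocyte line from Swiss albino mouse that forms adipocytes when treated with a cocktail of dexamethasone, IBMX and insulin. The study compared 3T3L1 Ddx6-KO cells, which received a lentiviral vector with Cas9 and a guide to an exon of Ddx6 on chromosome 9, with 3T3L1 TOM cells, which received the same vector with a guide to tdTomato, a sequence the mouse genome lacks. Both lines went through puromycin selection and limiting dilution, so each may stem from 1 clone, and a difference between them cannot be told apart from a difference between 2 clones. Total RNA was sequenced from 2 libraries of each line at day 0, before the cocktail, and 2 at day 2 of induction, which gives 4 groups of 2 libraries. One note in the labels gives harvest after 2 days of induction for every sample, including those titled as day 0, and the titles were followed here. Nothing in the labels states whether paired libraries represent independent cultures, and the tests below therefore gauge library-to-library scatter, which may be technical.

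The amount of RNA that a gene yields often scales with the number of its copies in the cell, so that a gain of a chromosome raises most of its genes together. Some genes depart from this, because feedback, imprinting or a switch in transcription sets their level instead. Cultured lines commonly differ in chromosome number. The number of copies of chromosome 18 was not measured in these libraries, and "shift" below means only the higher RNA level in the edited line.

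Ddx6, the RNA helicase gene targeted by the guide, stood at 11.3 and 19.9 FPKM in the TOM libraries at day 0 and at 28.8 and 28.4 at day 2. In the edited line it read 27.2 and 31.9 FPKM at day 0 and 50 and 43.0 at day 2. Its RNA was thus not lower in the edited line, and since FPKM of the whole gene do not read the edited site, these values check neither the edit nor the label. The deposited values summed to 478300 to 698100 FPKM per library, of which the 10 highest genes held 41.0 to 59.5%, and the number of reads per library is not given in the table. The 6 adipocyte markers summed to 40.5 and 37.7 FPKM in TOM cells at day 0 and to 594 and 579 at day 2, against 31.3 and 31.7 and then 14.1 and 8.39 in the libraries labelled Ddx6-KO. The 6 fibroblast or preadipocyte markers summed to 1366 to 2153 FPKM in all 8 libraries, although Thy1 was at 0.333 to 0.499 in the libraries labelled Ddx6-KO against 4.64 to 10.6 in TOM cells and Dlk1 at 13.5 to 70.2 against 167 to 616. The 6 macrophage markers summed to 1.94 to 4.31 FPKM with overlap between the groups. In such bulk samples, fewer cells of a type and less RNA per cell cannot be told apart.

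Chromosome 18 stood apart from every other chromosome in the ratio between the lines. Over the 150 members with a mean of at least 5 FPKM, the median ratio of the libraries labelled Ddx6-KO to the TOM libraries was 2.08-fold at day 0 (1.06 on the log2 scale) and 2.07-fold at day 2 (log2 1.05). The middle 50% of these genes, averaged over both days, lay between 1.72-fold and 2.49-fold. Across the other 19 chromosomes, the median log2 ratio averaged over both days ran from -0.43 on chromosome 14 to 0.36 on chromosome 1. Over all 6873 protein-coding genes outside chromosome 18 with a mean of at least 5 FPKM it was -0.01. All these ratios are of mean FPKM with 0.1 FPKM added to each group mean. The spread within chromosome 18 was also the narrowest of the 20 chromosomes, with an interquartile range of 0.53 on the log2 scale against 0.62 to 0.88 elsewhere. Genes left out by name were removed from chromosome 18 alone, so this and later comparisons with other chromosomes are of unlike gene sets.

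**Figure D1:**
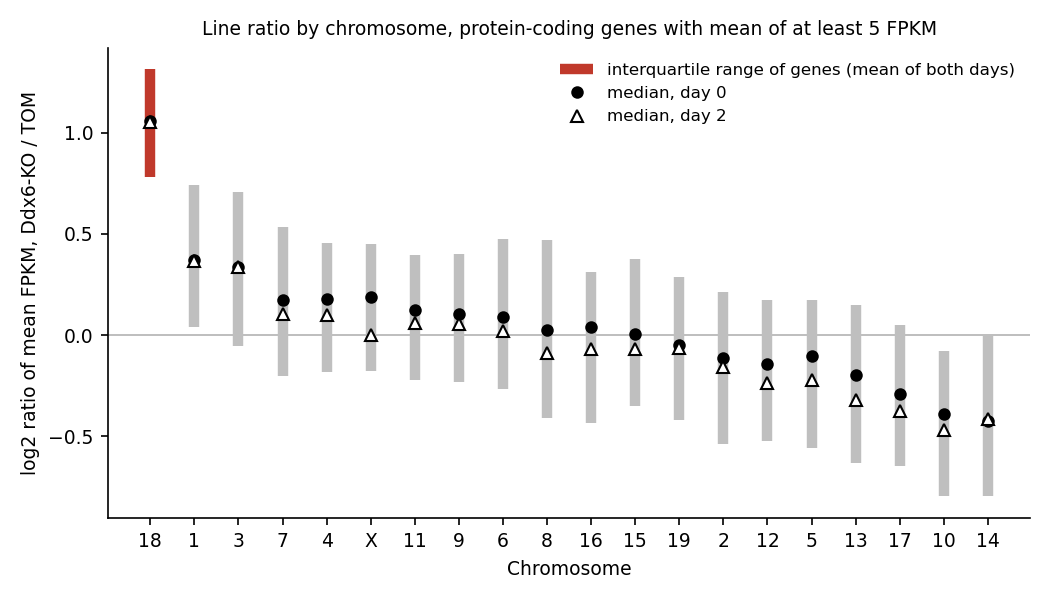
Median log2 ratio of mean FPKM (Ddx6-KO over TOM) by chromosome, at day 0 (filled circles) and day 2 (open triangles). Genes are protein-coding with a mean of at least 5 FPKM, and for chromosome 18 the members alone. Bars span the middle 50% of genes for the ratio averaged over both days, which is 0.78 to 1.31 for the 150 chromosome 18 genes, and the next highest medians, those of chromosome 1, are 0.37 on both days.

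The shift was seen in each library and not in 1 pair of them. Among the 4 pairings of a library labelled Ddx6-KO with a TOM library at day 0, the median log2 ratio of the 150 genes was 1.04 to 1.08, and at day 2 it was 0.91 to 1.10. Each library was also set against the mean of the 4 TOM libraries of both days. The median log2 difference of the 150 genes was -0.04 to 0.02 in the TOM libraries and 0.96 to 1.09 in the other 4. Of the 150 genes, 135 were higher in the edited line on both days and 4 were lower on both. In 192 of the 291 members all 4 libraries labelled Ddx6-KO lay above all 4 TOM libraries, where 11% of the 15811 genes tested in the whole table did. In 3 members, Impact, Slc12a2 and Apcdd1, all 4 lay below, where 8.08% of all genes did. These counts rest on the contrast that chose the chromosome, and nothing is read from them.

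The filter itself favours genes that are high in one line. Of the 291 members, 58 reached 1 FPKM in fewer than 2 TOM libraries and so passed only with the edited line, and 4 passed only with TOM libraries. The 141 members with a mean under 5 FPKM had a median of 2.33-fold (log2 1.22). When the minimum of 5 FPKM was set on the TOM libraries alone, a choice made after seeing the data, 119 genes remained with a median log2 ratio of 0.98 at day 0 and 0.90 at day 2. When it was set on the libraries labelled Ddx6-KO alone, 181 genes remained with medians of 1.06 and 1.05. A minimum on 1 line selects on one side of the ratio, so nothing is read from the difference between these medians.

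The shift ran along the whole chromosome. In 8 consecutive windows of 20 genes (10 in the last), ordered by start position, the median log2 ratio was lowest, 0.96, in the window from Ube2d2a to Yipf5 (chr18:35771558-40219429, GRCm38) and highest, 1.21, in the window from Prelid2 to Ppic (chr18:41875600-53418115). The first window, from Cul2 to Ttc39c (chr18:3382988-12738863), had a median of 1.12, and the last, from Adnp2 to Tmx3 (chr18:80126311-90543267), of 1.03. No window of the chromosome was free of the shift, and between 16 and 19 of the 20 genes in each full window had a log2 ratio above 0.5.

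**Figure D2:**
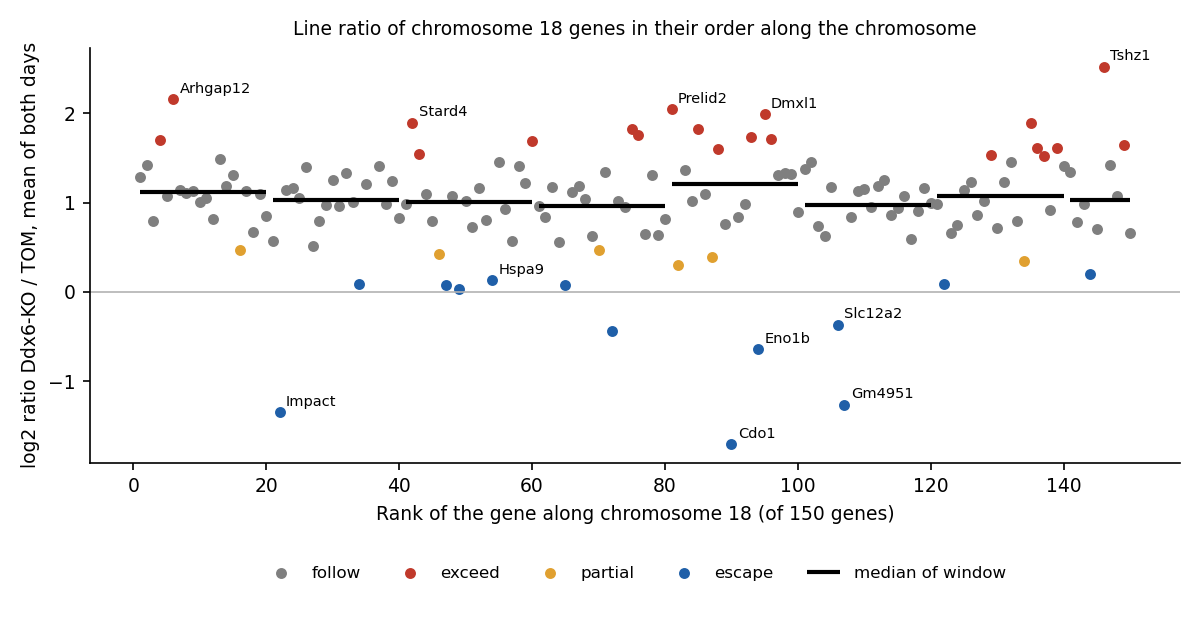
Log2 ratio of mean FPKM (Ddx6-KO over TOM, mean of both days) of chromosome 18 genes with a mean of at least 5 FPKM, in their order along the chromosome, coloured by class, with the median of each window of 20 genes as a black line. The window medians lie between 0.96 and 1.21, while single genes such as Impact, Cdo1 and Slc12a2 lie below 0; Gm6665, listed at 0 in a group, is not drawn.

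The 150 genes were sorted by the ratio averaged over both days. A log2 ratio from 0.5 to 1.5 was called following the shift, one above 1.5 exceeding it, one above 0.25 and below 0.5 a partial shift, and one of at most 0.25 escaping it. By this sorting 110 genes followed (73.3%), 21 exceeded (14.0%), 6 were partial (4.0%) and 13 escaped (8.67%). Of the protein-coding genes of other chromosomes, 17.4% lay in the range of the followers, 2.23% above it and 67% at or below 0.25. When each other gene was set against the median of its own chromosome instead, 7.70% lay as far below as the escaping genes do and 20.7% as far above as the exceeding genes do, against the 8.67% and 14.0% of the members. The classes differed little in level, with a median of the mean FPKM of 12.8 among followers, 11.1 among exceeding and 11.2 among escaping genes. They differed in the span of the gene on the genome, with a median of 39.2 kb for followers, 69.4 kb for exceeding and 16.9 kb for escaping genes, a description over genes whose class was set by the same libraries.

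Of the 8 followers with the highest levels, Cyb5a and Colec12 are described with the response to induction, and the other 6 are given here with Kif5b, a neighbour of Arhgap12. Csnk1a1 (chr18:61555274-61590061, plus strand) encodes casein kinase 1 alpha, a kinase of the beta-catenin destruction complex. It stood at 57.03 and 57.4 FPKM in TOM cells at day 0 and at 71.5 and 68.7 at day 2, and at 156 and 162 and then 133 and 129 FPKM in the libraries labelled Ddx6-KO. The 2 lines did not overlap on either day, and the ratio was 2.78-fold at day 0 and 1.87-fold at day 2. Paip2, a repressor of translation that binds the poly(A)-binding protein, was at 39.5 and 29.7 and then 53.6 and 44.4 FPKM in TOM cells. In the libraries labelled Ddx6-KO, Paip2 was at 100.4 and 99.2 and then 116.1 and 123.4 FPKM, a ratio of 2.88-fold at day 0 and 2.44-fold at day 2.

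Ctnna1 encodes alpha-catenin, which ties cadherins to actin, and was at 36.1 and 35.4 and then 27.4 and 25.6 FPKM in TOM cells. In the edited line Ctnna1 was at 74.8 and 76.7 and then 97.5 and 92.6 FPKM, 2.11-fold at day 0 and 3.57-fold at day 2. Ndfip1, an adaptor of Nedd4-family ubiquitin ligases, had ratios of 2.45-fold and 2.49-fold, the most even of these between the days. Kif5b, the heavy chain of conventional kinesin, was at 23.1 to 28.2 FPKM in the 4 TOM libraries and at 38.3 to 64.2 in the other 4, with 38.3 in library 2 at day 2 well under the other 3. Ppic, the peptidyl-prolyl isomerase cyclophilin C, was higher by 1.46-fold at day 0 and 2.37-fold at day 2, and Matr3, an RNA-binding protein of the nuclear matrix, by 1.31-fold and 1.67-fold. For each of these 7 genes all 4 libraries labelled Ddx6-KO lay above all 4 TOM libraries. Matr3 shares its strand and place with the annotated gene Gm28285, so its value is uncertain. Ctnna1 overlaps Lrrtm2 and Paip2 overlaps Slc23a1 on the opposite strand. Over all 291 members, 45 overlap another coding gene on their own strand and 42 on the opposite strand.

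Among the 21 genes that exceeded the shift, Tshz1 had the highest ratio of those measured in every group. Tshz1, a transcription factor of the teashirt family (chr18:84011627-84087706, minus strand), stood at 1.07 and 0.803 and then 2.14 and 1.76 FPKM in TOM cells and at 5.63 and 5.45 and then 12.9 and 11.7 in the libraries labelled Ddx6-KO. The ratios were 5.45-fold at day 0 and 6.04-fold at day 2, and the lines did not overlap. Arhgap12, a GTPase-activating protein (chr18:6024427-6136098, minus strand), was at 8.35 and 9.94 and then 5.59 and 4.58 FPKM in TOM cells and at 32.9 and 29.1 and then 28.1 and 32.8 in the other line, 3.37-fold and 5.89-fold. Its neighbours Svil and Kif5b had averaged log2 ratios of 1.07 and 1.14 against 2.15 for Arhgap12 itself. Dmxl1, a gene of the rabconnectin family that acts with the vacuolar proton pump, was at 3.62 to 4.76 FPKM in the TOM libraries and at 12.1 to 22.7 in the other 4.

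Further exceeding genes act in lipid transport and at the Golgi. Stard4, a carrier of cholesterol between membranes, had ratios of 4.45-fold at day 0 and 3.11-fold at day 2, and Dym, a Golgi protein, of 3.99-fold and 3.44-fold. Fchsd1, a membrane-bending F-BAR protein, was at 2.45 to 6.23 FPKM in TOM libraries and at 14.3 to 18.5 in the others, and it overlaps Rell2 on the opposite strand. The receptor-regulated and the common mediators of TGF-beta signalling, Smad2 and Smad4, both exceeded the shift slightly, at averaged log2 ratios of 1.60 and 1.53. Smad2 was at 8.91 and 9.71 and then 5.51 and 4.93 FPKM in TOM cells and at 28.9 and 22.2 and then 18 and 17.9 in the other line. Gm6665, a predicted gene inside Wdr33 on the other strand, was listed at 0 in both TOM libraries at day 2 and at 13.2 and 11.3 FPKM in the libraries labelled Ddx6-KO, so no ratio is given for it. At day 0 its libraries overlapped, with 8.402 and 2.75 FPKM in TOM cells and 10.3 and 2.65 in the other line. Whether strand was used in counting is not stated, so Gm6665 and Wdr33 cannot be told apart.

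The 13 genes that escaped the shift were spread over 7 of the 8 windows, and each had at least 1 neighbour that followed or exceeded it, where a neighbour is the next gene on either side with a mean of at least 5 FPKM. Cdo1 encodes cysteine dioxygenase, which commits cysteine to breakdown towards taurine (chr18:46713193-46728395, minus strand). Cdo1 stood at 3.51 and 2.78 FPKM in TOM cells at day 0 and at 43.8 and 40.4 at day 2, and in the libraries labelled Ddx6-KO at 0.382 and 1.01 and then 16.6 and 15.8. It was lower in the edited line on both days, at 0.245 and 0.386 of the TOM level. Its neighbours, Tmed7 and Atg12, had averaged log2 ratios of 0.76 and 0.84, and Tmed7 shares its strand and place with Ticam2. Impact, an inhibitor of the amino acid sensor Gcn2 and an imprinted gene in mouse (chr18:12955852-12992950, plus strand), was at 32.3 and 26.1 and then 15.7 and 19.1 FPKM in TOM cells. In the libraries labelled Ddx6-KO Impact was at 7.47 and 8.47 and then 9.23 and 10.2 FPKM, below every TOM library, between Osbpl1a at a log2 ratio of 0.58 and Ss18 at 1.14.

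Slc12a2 encodes the sodium, potassium and chloride cotransporter NKCC1 (chr18:57878678-57946821, plus strand). It was at 15.3 and 13.2 and then 14.2 and 12.8 FPKM in TOM cells and at 11.4 and 11.1 and then 10.6 and 10.0 in the other line, lower by a small and even margin in every library. The next gene along the chromosome with a mean of at least 5 FPKM, Gm4951, was at 21.2 and 19.6 FPKM in TOM cells at day 0 against 4.43 and 3.79 in the other line. At day 2 the gap in Gm4951 had closed to 8.99 and 7.69 FPKM against 7.83 and 6.33, and the lines overlapped. Isoc1, between them and just under that minimum with a mean of 4.37 FPKM, had an averaged log2 ratio of -0.11. On the outer sides, the next genes above that minimum were Prrc1, with an averaged log2 ratio of 1.18, and Dctn4, with 0.84. Between Gm4951 and Dctn4 lay Gm4841, F830016B08Rik and Smim3, all under that minimum, with averaged log2 ratios of 1.11, -0.70 and 2.03.

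Hspa9, the mitochondrial chaperone mortalin (chr18:34937414-34954357, minus strand), was the most highly expressed gene that escaped. It stood at 92.4 and 91.5 and then 66.5 and 58.5 FPKM in TOM cells and at 113.2 and 123.4 and then 55.0 and 62.0 in the libraries labelled Ddx6-KO. The lines were separate at day 0, by 1.29-fold, and overlapped at day 2, and its neighbours, Etf1 and Ctnna1, had averaged log2 ratios of 0.81 and 1.46. Eno1b, an intronless copy of the glycolytic enolase gene Eno1, was at 37.0 and 30.5 and then 44.2 and 52.4 FPKM in TOM cells and at 46.0 and 37.8 and then 17.6 and 14.3 in the other line. Reads of Eno1, which lies on another chromosome, could be assigned to this copy or the reverse, so the value of Eno1b is uncertain.

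Pcdhgb4, a clustered protocadherin, had log2 ratios of -0.87 at day 0 and 0.01 at day 2, but it shares its last exons with the other Pcdhg genes, so its values are uncertain. The remaining 7 escaping genes lay between averaged log2 ratios of 0.03 and 0.20. They were Kif20a, a kinesin of cell division, Slc35a4, a solute carrier, Fam13b, Psmg2, a chaperone of proteasome assembly, Polr2d, a subunit of RNA polymerase II, Hspa9, given above, and Txnl4a, a part of the U5 spliceosome particle. In none of these 7 did the 4 libraries of one line lie wholly on one side of the other over both days. Kif20a overlaps Cdc23, Slc35a4 overlaps Apbb3 and Fam13b overlaps Pkd2l2 on the opposite strand, and Txnl4a overlaps Gm16286 on its own strand, so that 4 of the 7 have values that cannot be fully told apart from a neighbour. The 6 partial genes were Snrpd1, a core protein of spliceosomal particles, Reep5, an endoplasmic reticulum shaping protein, Zmat2, Lars, the leucyl-tRNA synthetase, Pggt1b, a protein prenyltransferase subunit, and BC031181, with averaged log2 ratios of 0.30 to 0.47.

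**Figure D3:**
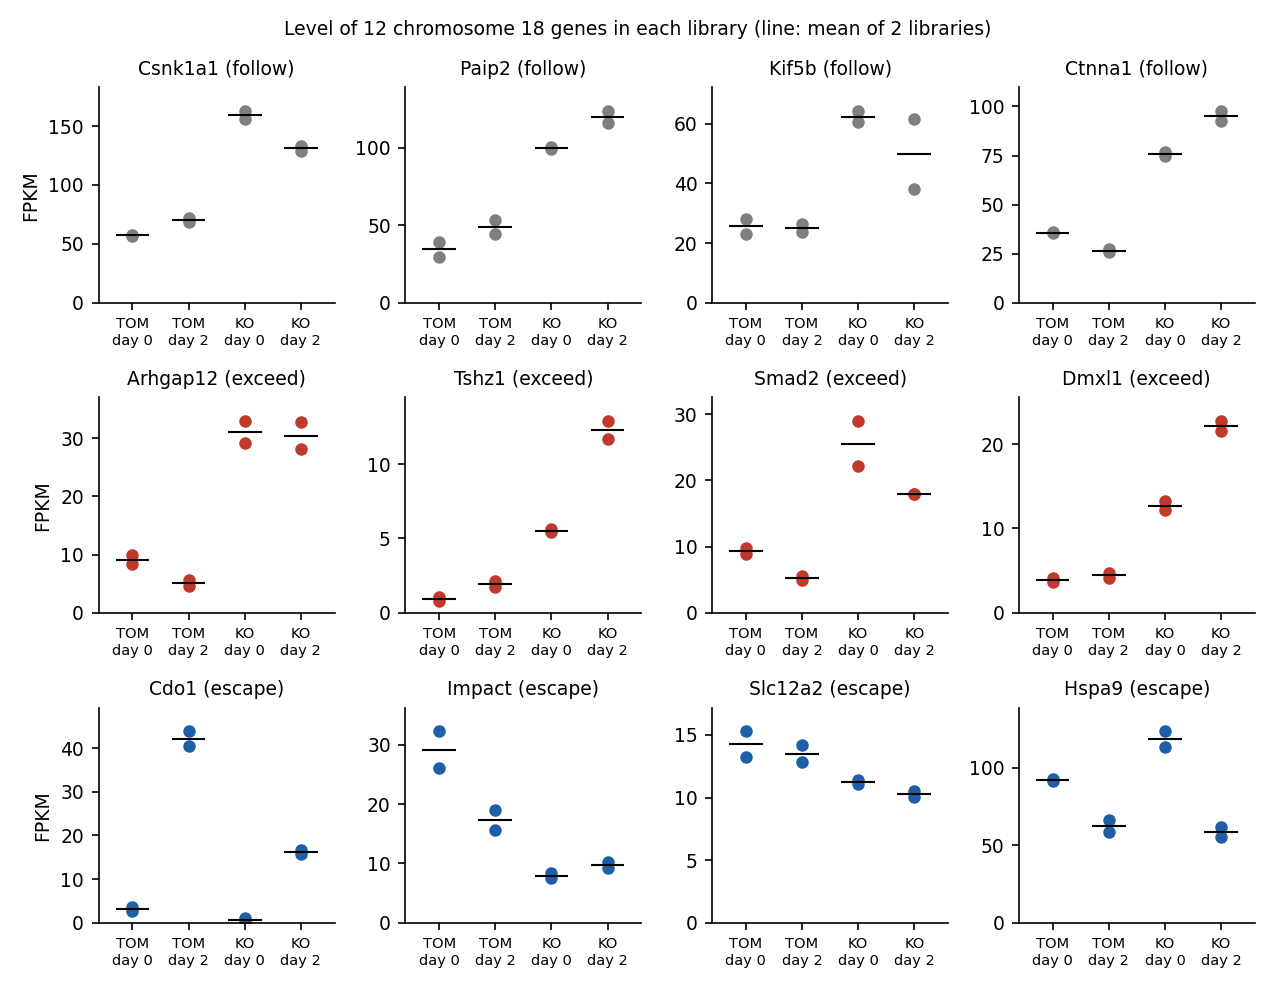
FPKM of 12 chromosome 18 genes in each of the 8 libraries, by line and day (points are libraries, lines are means of 2, each panel has its own axis from 0). In the 4 following and 4 exceeding genes all libraries labelled Ddx6-KO lie above all TOM libraries, in Impact and Slc12a2 all lie below, and in Hspa9 the lines separate at day 0 but overlap at day 2.

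The class of a gene was only partly the same at both days when each day was read on its own, from separate libraries. Of 103 genes that followed at day 0, 75 followed at day 2, and of 11 that escaped at day 0, 5 escaped at day 2. Over the 149 genes not at 0 in any group, Pearson's correlation of the 2 days' log2 ratios was 0.48, and Spearman's over all 150 was 0.35. These are descriptions across genes, which are not independent. The 4 genes that were lower in the edited line on both days were Cdo1, Impact, Gm4951 and Slc12a2. Several genes counted as followers did so only on average, above all Cyb5a, with log2 ratios of -0.26 at day 0 and 2.42 at day 2.

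**Figure D4:**
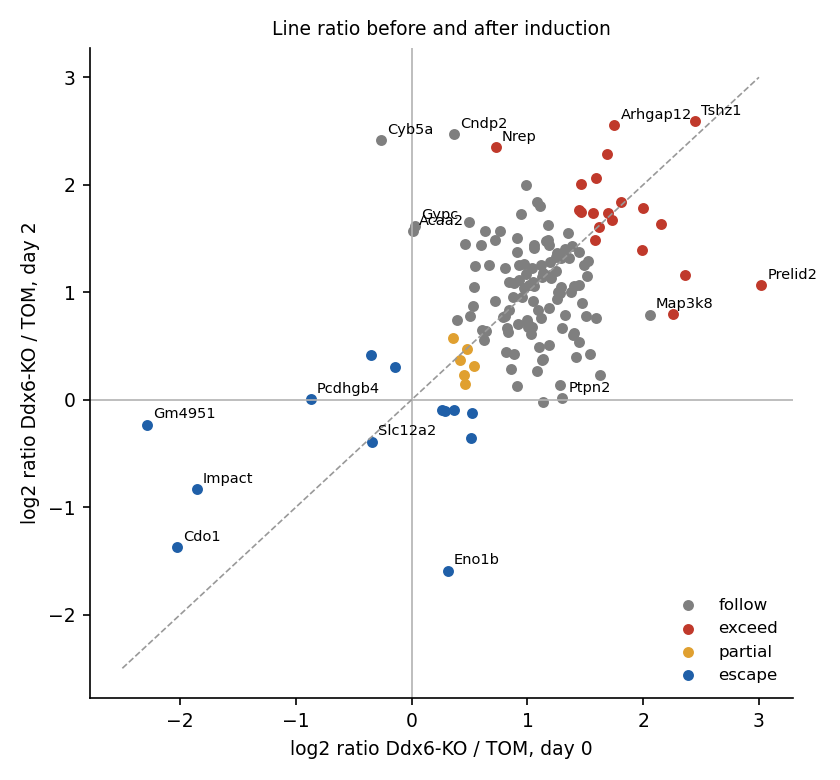
Log2 ratio of mean FPKM (Ddx6-KO over TOM) at day 0 against day 2 for 149 chromosome 18 genes with a mean of at least 5 FPKM, coloured by class; the dashed line marks equal ratios and Gm6665 is not drawn. Most genes lie around 1.06 at day 0 and 1.05 at day 2, Cyb5a, Gypc and Acaa2 are near 0 at day 0 only, and Eno1b is at -1.59 at day 2.

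By function, the median ratio was higher in the edited line in every list of genes examined. The chromosome was chosen for this ratio, so nothing is read from that. Among the 15 functional lists drawn up for this chromosome, the lowest median log2 ratio of members with a mean of at least 5 FPKM was 0.73, in translation and tRNA charging, and the highest was 1.57, in TGF-beta and BMP signalling, beside 1.05 over all 150 genes. The lists of clustered protocadherins, of extracellular matrix and of cell cycle genes held only 3 such genes each. The TGF-beta list held only 2, Smad2 and Smad4. Of its weaker members, Ldlrad4, an inhibitor of the pathway, was at 0.348 to 1.39 FPKM in TOM libraries and at 4.72 to 7.48 in the others, and Bambi, a decoy receptor, at 0.135 to 0.5 and at 1.93 to 3.63. All 5 members of this list were higher in all 4 libraries labelled Ddx6-KO, as were 192 of the 291 members and 11% of all genes tested. Bambi and Zbtb7c reached 1 FPKM in the edited line alone and so passed the filter only through it. Nothing is read from this count.

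In RNA processing, 12 of 16 genes followed, none exceeded, 2 were partial and 2 escaped. In translation and tRNA charging, 8 of 10 followed, Lars was partial and Impact escaped, and Nars, the asparaginyl-tRNA synthetase, had a ratio of 1.55-fold at day 0 and 1.47-fold at day 2. In chromatin and transcription, 13 of 14 followed, with the histone deacetylase Hdac3 at 1.93-fold and 1.94-fold. In vesicle traffic and autophagy, 13 of 17 followed and 3 exceeded, with the cargo receptor Lman1 at 2.44-fold and 2.07-fold and the GTPase Rab18 at 2.40-fold and 2.00-fold. In the ubiquitin pathway, 6 of 10 followed and 3 exceeded, and the deubiquitinase Usp14 was at 2.17-fold and 2.38-fold. The clustered protocadherins counted 33 members, of which 27 were higher in all 4 libraries labelled Ddx6-KO, as were 11% of all genes tested. Several of the 27 reached 1 FPKM in the edited line alone and so passed the filter only through it. Only 3 of the 33 had a mean of at least 5 FPKM, and reads of their shared exons can be counted for more than 1 of them. All these counts describe the contrast that chose the chromosome and are not evidence about the lists.

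The response of the members to the cocktail was tested within each line. Changes are differences of log2(FPKM + 1) between day 2 and day 0, which understates the change of low genes, and were tested with limma over all 15811 genes in 1 fit to the 8 libraries. In TOM cells, 7 of the 291 members (2.41%) rose and 12 (4.12%) fell at an adjusted p under 0.05, where 3.4% of all genes rose and 3.74% fell. In the cells labelled Ddx6-KO, 11 (3.78%) rose and 25 (8.59%) fell, where 4.8% and 5.85% of all genes did. The median change of the members was -0.03 in TOM cells and -0.05 in the other line, beside 0.03 and 0.09 over all genes. These shares are near those of the whole table and are not a result about the members. At an unadjusted p under 0.05, 62 members had a change in TOM cells and 81 in the other line by limma. The share of all genes at an unadjusted p was not taken, so nothing is read from these counts or from such counts below. The summed adipocyte markers, given above, were higher at day 2 in TOM libraries and lower in the other line, and their part in the changes of the members was not tested. After rescaling to TPM, which moved the median change of all genes to -0.14 in TOM and to -0.27 in the other line, 2 members rose and 25 fell in TOM cells and 6 rose and 54 fell in the cells labelled Ddx6-KO.

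Cdo1 rose most in both lines, by 3.38 in TOM cells and by 3.37 in the cells labelled Ddx6-KO (standard errors of 0.23, limma adjusted p = 0.00028 and 0.00026). On this scale the difference between the lines was -0.02 (standard error 0.32), but the added 1 FPKM understates the change from the low day 0 level of the edited line, and the ratio between the lines went from 0.245 to 0.386. Atg12, the ubiquitin-like protein of autophagosome formation and the next gene along, was at 9.96 and 8.94 and then 40.6 and 37.8 FPKM in TOM cells and at 21.1 and 22.1 and then 59.0 and 52.2 in the other line. It rose by 1.94 in TOM cells (adjusted p = 0.00037 from limma) and by 1.32 in the other line (adjusted p = 0.0018), and the test of the difference gave -0.62 (adjusted p = 0.16). Atg12 lies just beside Cdo1, on the same strand and less than the length of either gene away.

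Members that rose in both lines numbered 4. Besides Cdo1 and Atg12 they were Cdh2, the N-cadherin gene, which rose by 0.68 in TOM and by 1.49 in the cells labelled Ddx6-KO, and Jcad, a protein of endothelial cell junctions, which rose by 0.89 and by 0.91. Members that fell in both numbered 5. They were Bin1, a membrane-bending amphiphysin, by 1.12 in TOM and 1.08 in the other line, Cd74, the invariant chain of MHC class II, by 1.45 and 2.27, Dpysl3, a regulator of the cytoskeleton, by 0.90 in both, Nars, by 0.92 and 1.01, and Gypc, a glycophorin of the membrane skeleton, by 2.13 and 0.68. Cd74 reached 1 FPKM at day 0 alone, in both lines, at 3.82 to 5.83 FPKM against 0 to 0.88 at day 2. It entered the tests through the groups in which it was high, so nothing is read from its calls. One member, Cndp2, a cytosolic dipeptidase, fell in TOM cells and rose in the other line. The share of all genes called in both lines was not taken, so nothing is read from these counts.

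In TOM cells, further members that rose were Ap3s1, a subunit of the AP-3 adaptor of lysosomal transport, by 0.95 (standard error 0.15, adjusted p = 0.0089 from limma), Sra1, the steroid receptor RNA activator, by 0.95 and Slc35a4 by 0.75. Further members that fell were Nrep, a regeneration-related gene, by 1.63, Colec12, a scavenger receptor with a collagen-like domain, by 1.40, Gm4951 by 1.20, F830016B08Rik by 2.21 and Dtna, the dystrobrevin alpha gene, by 1.07. Gm6665 passed the test as well, from 8.402 and 2.75 FPKM to a listed 0 in both libraries. The nearby genes Gm4951 and F830016B08Rik were both high in TOM cells at day 0 alone, the latter at 8.38 and 13.2 FPKM against 0.937 to 3.73 in the other 6 libraries.

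In the cells labelled Ddx6-KO, Cyb5a rose most among the further members. Tshz1 rose by 1.02, Svil, a protein of actin and membrane contacts, by 1.41, Acaa2, the mitochondrial thiolase of fatty acid oxidation, by 0.78, Dmxl1 by 0.76 and Pcdhgb4 by 0.90. The inflammation list was drawn up with earlier results known. Of its 8 members, 4 passed as lower in this line, beside 8.59% of the members and 5.85% of all genes. The list median was -1.23 beside 0.09 over all genes. Tslp and Cd74, counted in both, entered the test through groups in which they were high, so nothing is read about the list. Tmem173, the DNA-sensing adaptor STING, went from 29.4 and 25.2 to 7.52 and 9.72 FPKM in this line and fell by 1.56 (standard error 0.24, adjusted p = 0.0086 from limma), while in TOM cells it went from 8.36 and 5.21 to 3.03 and 3.43 (change -0.85, adjusted p = 0.091). Map3k8, a kinase of the inflammatory MAP kinase cascade, fell by 1.71 and Cd74 by 2.27. The other of the 4 was Tslp, an epithelial cytokine gene, at 3.41 and 3.12 FPKM at day 0 in this line and at 0 to 0.689 in the other 6 libraries. In TOM cells, 1 of the 8, Cd74, fell. The difference between the lines was past the threshold for 1 gene of this list, Ptpn2. The 4 calls in the cells labelled Ddx6-KO are low in level for Tslp and Cd74, at under 6 FPKM in every library.

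Among further members that fell in the cells labelled Ddx6-KO, Hspa9 fell by 1.00 (standard error 0.13, adjusted p = 0.0044 from limma), beside -0.55 in TOM cells (adjusted p = 0.054). Tubb6, a beta-tubulin, was at 71.3 and 71.9 FPKM at day 0 and at 26.0 and 30.5 at day 2 and fell by 1.31, beside -0.52 in TOM cells (adjusted p = 0.095 from limma). Ier3ip1, an endoplasmic reticulum protein, fell by 1.33 and Spire1, an actin nucleator, by 1.41, and Ier3ip1 shares its strand and place with Hdhd2. Mbd2, a reader of methylated DNA, fell by 0.96, and Seh1l, of the nuclear pore, by 0.61. 4930503L19Rik fell by 1.33. Of the 25 members that fell in this line, 3 reached 1 FPKM in its day 0 libraries alone and so entered the test through the group in which they were high, and nothing is read from their calls. They were Tslp, given above, Ecscr, an endothelial receptor, at 2.72 and 6.61 FPKM at day 0 and at 0.749 and a listed 0 at day 2, and Lipg, an endothelial lipase, at 2.94 and 3.13 and then 0.185 and 0.217.

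**Figure D5:**
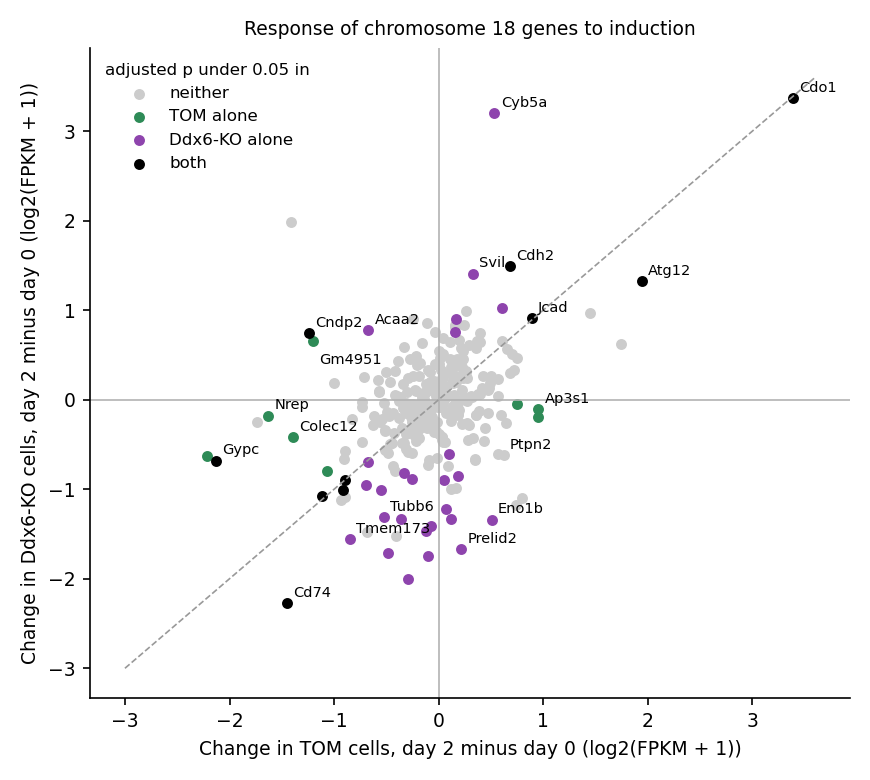
Change over induction (day 2 minus day 0 on log2(FPKM + 1)) of the chromosome 18 members in TOM cells against cells labelled Ddx6-KO; colour gives the line in which limma's adjusted p was under 0.05, and the dashed line marks equal changes. Most members lie near 0 on both axes, and Cyb5a rose by 3.20 in the cells labelled Ddx6-KO. In both lines 10 members passed the test (Cdo1 highest), and the share of all genes that did was not taken. Gm6665 is not drawn.

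The response itself differed between the lines for 10 members. The change in the cells labelled Ddx6-KO was more positive for 6 (2.06%) and more negative for 4 (1.37%), where 2.02% and 2.17% of all genes passed. These shares are near or below those of the whole table and are not a result about the members. The added 1 FPKM shrinks changes more in the line with the lower level, and with 0.1 FPKM added 9 of the 10 differences passed. Cyb5a, the cytochrome b5 that passes electrons to fatty acid desaturases (chr18:84838704-84879871, plus strand), showed the largest difference of the 10. It was at 99.6 and 90.5 and then 148 and 128 FPKM in TOM cells and at 80.4 and 77.9 and then 742 and 733 in the other line. It rose by 3.20 in the cells labelled Ddx6-KO (standard error 0.13, adjusted p = 6.0e-05 from limma) beside 0.53 in TOM cells (adjusted p = 0.052), a difference of 2.67 (adjusted p = 0.00076).

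Cndp2, the neighbour before Cyb5a (chr18:84667465-84685702, minus strand), was at 17.9 and 19.1 and then 8.16 and 6.41 FPKM in TOM cells and at 24.0 and 23.8 and then 43.7 and 38.0 in the other line. It fell by 1.24 in one and rose by 0.75 in the other, and the changes differed by 1.99 (limma adjusted p = 0.0053, standard error 0.23). Acaa2 was at 11.0 and 11.0 and then 6.59 and 6.50 FPKM in TOM cells and at 12.4 and 9.80 and then 19.8 and 19.4 in the other line, so that the lines overlapped at day 0 and stood 2.97-fold apart at day 2. Gypc was at 26.1 and 24.4 and then 5.23 and 4.80 FPKM in TOM cells and at 27.1 and 24.2 and then 16.3 and 15.0 in the other line. It fell in both, and by less in the cells labelled Ddx6-KO, with a difference of 1.44 (adjusted p = 0.013 from limma). Colec12 fell by 1.40 in TOM cells and had a change of -0.42 in the other line (difference 0.97, adjusted p = 0.035 from limma), and Gm4951 had a difference of 1.86 (adjusted p = 0.011).

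The 4 members with a more negative change in the cells labelled Ddx6-KO were Prelid2, Eno1b, Ptpn2 and Ap3s1. Prelid2, a gene with a PRELI domain (chr18:41875600-41951242, minus strand), was at 3.26 and 6.20 and then 6.45 and 4.53 FPKM in TOM cells and at 35.5 and 42.5 and then 10.7 and 12.5 in the other line. Its ratio between the lines went from 8.10-fold at day 0 to 2.09-fold at day 2, and the changes differed by -1.88 (standard error 0.40, adjusted p = 0.049 from limma). Ptpn2, a phosphatase that restrains JAK and STAT signalling, was at 11.98 and 14.1 and then 20.9 and 20.1 FPKM in TOM cells and at 31.4 and 33.1 and then 22.9 and 18.6 in the other line, so that the lines overlapped at day 2. Its difference was -1.24 (adjusted p = 0.028 from limma), that of Ap3s1 -1.06 (adjusted p = 0.037) and that of the uncertain Eno1b -1.84 (adjusted p = 0.012).

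These calls rest on 2 libraries a group and several depend on single libraries. In TOM cells the calls for Slc35a4 and Dtna were lost whichever library was left out. So were those for Pcdhgb4, Seh1l and Ecscr in the cells labelled Ddx6-KO. Among the differences, the call for Ap3s1 was lost whichever library was left out. Those for Prelid2, Ptpn2, Acaa2 and Colec12 were lost in most such fits. Of the 10 differences, 2 passed without either Ddx6-KO day 0 library or without TOM day 2 library 2, 5 when library 1 of the TOM groups was dropped at either day, 7 without TOM day 0 library 2 and 6 without either Ddx6-KO day 2 library. Cyb5a and Cndp2 passed in all 8 of these fits. Of the 19 calls in TOM cells, 8 passed when TOM day 0 library 1 or one of the TOM day 2 libraries was left out, and 11 when TOM day 0 library 2 was. Of the 36 in the cells labelled Ddx6-KO, 7 passed without either of their day 0 libraries, and 12 and 18 without day 2 libraries 1 and 2. Cdo1, Atg12, Cndp2, Gypc, Colec12 and F830016B08Rik in TOM cells, and Cdo1, Atg12, Cyb5a, Cdh2 and Tubb6 in the cells labelled Ddx6-KO, passed in all 8 fits.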

How the data were processed

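The authors deposited 1 table of FPKM per gene, for which reads passed bcl2fastq and FastQC 0.11.2, TopHat2 2.1.0 placed them on GRCm38 (mm10), and Cufflinks 2.2.1 gave the values. The release of their annotation and the use of strand in counting are not given in the sources used here. Read counts were not used here, so depth is unknown and no count test was run. Libraries were assigned to groups by the sample titles. The library numbers used here are those of the table's columns, of which 5 of 8 match a number in the titles.

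Identifiers were matched to GENCODE M21 (45139 of 46073) for chromosome, gene type and position. The members and the functional lists were chosen with earlier results of these data known. Ratios between lines are log2 ratios of group means plus 0.1 FPKM, over members with a mean of at least 5 FPKM, with no test. Changes over induction and their difference were tested with limma 3.58.1 in R 4.3.3 on log2(FPKM + 1), with 1 mean per group, all 8 libraries, a variance trend, and Benjamini-Hochberg adjustment over the 15811 genes that reached 1 FPKM in 2 or more libraries, at a threshold of 0.05. The study names a t test between groups, in place of which this moderated test was used for groups of 2. The fit was tested on simulated data.

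Genes were named by rule: of the followers the 8 with the highest mean FPKM, of the escaping genes the 12 with the lowest ratio and the 4 with the highest level, of the exceeding genes the 8 with the highest ratio, for each test up to 10 in each direction with a mean of at least 1 FPKM, and up to 4 of the highest members of each list. Apcdd1, Cul2 and the other window ends, the partial genes, Txnl4a, Isoc1, Gm4841, Smim3, Zbtb7c and Lipg were named after their values were seen. Same-numbered libraries of different groups had correlations of their deviations from the group means of -0.10 to 0.07, so the numbers were not taken to pair them. Alternatives were pseudocounts, filters, TPM, median-ratio and quantile scaling, no variance trend, a fit to the compared libraries alone, leaving out each library and 2 replicate blocks. Tables were handled with pandas 2.3.3 and numpy 2.4.6 in Python 3.11.15.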

Additional observations from a re-analysis of the deposited data

Results flagged for a closer look

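The 10 members whose change over induction differed between the lines by limma's test of the difference, given as the change in the cells labelled Ddx6-KO minus that in TOM cells on the log2(FPKM + 1) scale, were as follows. Cyb5a had a difference of 2.67, Cndp2 of 1.99, Gm4951 of 1.86, Acaa2 of 1.45, Gypc of 1.44 and Colec12 of 0.97. Prelid2 had a difference of -1.88, Eno1b of -1.84, Ptpn2 of -1.24 and Ap3s1 of -1.06. The 6 positive and 4 negative differences were 2.06% and 1.37% of the members, where 2.02% and 2.17% of all genes passed. The edit and the clone cannot be told apart in these differences, since each line was sequenced as it stood after limiting dilution.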

How the results depend on the processing

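The ratio between the lines kept its direction under every alternative run. The median log2 ratio of the members was 1.06 at day 0 and 1.05 at day 2 and became 1.10 and 0.88 as TPM, 0.95 and 0.90 by median-ratio scaling, 0.97 and 0.96 with 1 FPKM added, 0.98 and 0.90 with the minimum set on the TOM libraries alone, 1.08 at day 0 with a minimum mean of 1 FPKM and 1.01 at day 0 with one of 10 FPKM, and leaving out 1 library gave 1.04 to 1.10 at day 0 and 0.95 to 1.10 at day 2. The 110 following genes became 167 with a minimum mean of 1 FPKM, with which 57 exceeded, 16 were partial and 23 escaped. The 21 exceeding genes became 12 with 1 FPKM added and 10 with the minimum on TOM libraries alone, the 6 partial genes became 10 after median-ratio scaling and the 13 escaping genes 8 with a minimum mean of 10 FPKM.

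Counts of calls moved more. The 7 higher and 12 lower members in TOM cells became 3 higher without a filter, 19 lower with a filter of 5 FPKM, 2 higher and 25 lower after TPM rescaling, 3 higher without the variance trend and 2 and 2 in a fit to the TOM libraries alone. Leaving out 1 library gave 2 to 8 higher and 5 to 11 lower. The 11 higher and 25 lower members in the cells labelled Ddx6-KO became 7 and 16 without a filter, 6 and 54 after TPM rescaling, 7 higher after median-ratio scaling and 5 and 12 in a fit to their libraries alone. Leaving out 1 library gave 4 to 11 higher and 3 to 23 lower. The 6 and 4 differences between the lines became 9 lower with a pseudocount of 5, 1 lower without a filter, 9 lower with a filter of 5 FPKM and 2 lower without the variance trend. Leaving out 1 library gave 2 to 5 higher and 0 to 2 lower, and at an unadjusted p under 0.05 between 39 and 55 members had a difference.

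With a replicate block by the number in the titles, where the 3 unmatched columns took the number left over, 2 members rose and 4 fell in TOM cells, 2 rose and 0 fell in the cells labelled Ddx6-KO and 0 and 0 differed by limma, where 28 differed at an unadjusted p under 0.05. With a replicate block by the column number, chosen after seeing the data, these were 3 and 10, 9 and 18, and 6 and 2. No call of a change reversed its direction under any alternative. The number of reads behind each value is unknown, so members near 1 FPKM carry a counting error that could not be sized.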
